A study of Arabidopsis thaliana with 2 samples.

Results

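The deposited table annotates 90 Arabidopsis thaliana genes, of 18617 rows in all, with auxin response or transport outside the SAUR family. A row was taken when its description contained auxin or indole-3-acetic acid and neither its description nor its symbol contained the letters SAUR. Of 131 rows with either term, 41 carried those letters and were left out. The 90 members comprised 20 Aux/IAA repressors, 15 ARF transcription factors, 4 receptors of the TIR1/AFB group, 9 GH3 enzymes, 16 carriers, the carrier regulator BIG, 5 proteins with a DOMON domain, 2 dormancy/auxin associated proteins and 9 genes of other kinds. The remaining 9 were SAUR genes after all, described in words as small auxin upregulated, and they are treated as a class of their own. The rule reads descriptions and not families, so relatives with other descriptions, such as TIR1, IAA27 and ABCB21, are no members and are named as relatives where they appear.

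Auxin is a growth hormone whose main form is indole-3-acetic acid. It binds a receptor of the TIR1/AFB group together with an Aux/IAA repressor, the repressor is degraded, and ARF transcription factors bound to promoters are released. Many Aux/IAA, GH3 and SAUR genes are induced within minutes, so the first of these limit the signal by feedback, and GH3 enzymes lower free auxin by joining it to amino acids. Carriers of the AUX1/LAX group bring auxin into cells, PIN and ABCB proteins move it out, and PILS proteins hold it in the endoplasmic reticulum.

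Total RNA of seedling shoots was sequenced from the bts-1 mutant and from wild-type Col-0, with 1 library per genotype. All plants grew on sucrose-free Murashige and Skoog medium of reduced strength. The BTS protein is an E3 ubiquitin ligase and a negative regulator of iron-deficiency responses. The sources used here state neither the age of the seedlings, nor the bts-1 lesion, nor any pooling of plants. Levels below are log2(FPKM + 1) as deposited, where FPKM is the number of sequenced fragments scaled by gene length and library size. Subtracting the Col-0 level from the bts-1 level gives the log2 ratio. With 1 library per genotype there is no replicate spread and no test, so "higher" and "lower" describe these libraries and not the genotypes, and with no counts in the table the depth is unknown.

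BTS itself (AT3G18290) was at 9.57 in bts-1 and 10.84 in Col-0, a log2 ratio of -1.27. Markers of leaf mesophyll were abundant in both libraries, at 11.01 to 12.09 in bts-1 and 11.10 to 12.41 in Col-0 over 5 genes. Levels of genes on chromosome 3, whose identifiers begin with AT3G, vary with the exon length of the gene that comes next (in Col-0 with a slope of -0.57, against -0.02 to 0.04 on the other chromosomes) and cannot be compared with those of other genes. For the 11 members there, rescaling by exon lengths changed no log2 ratio by more than 0.06. Rescaling multiplies both libraries of a gene by the same factor, so no sign could change, and it is no check on these ratios. The mesophyll markers CA1 and LHCA1 also lie on chromosome 3, and rescaled CA1 stood at 10.61 in bts-1 and 10.73 in Col-0. In whole shoots, fewer cells of a type and less RNA per cell cannot be told apart.

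As a group the auxin genes lay close to all genes of the table. The median log2 ratio of the 90 members was 0.05, against 0.04 over the 18510 genes that reached 1 FPKM in one of the libraries, and the interquartile range was -0.20 to 0.34 for members and -0.21 to 0.27 for all genes. Of the 90 members, 2 (2.22%) were at least 2-fold higher in bts-1, where the share of all genes was 1.92%, and 2 (2.22%) were at least 2-fold lower, where it was 3.63%. At a limit of 1.5-fold, 9 of the 90 were higher against 7.53% of all genes, and 8 (8.89%) were lower against 9.32%. A positive log2 ratio was found for 49 members (54.4%) and for 54.8% of all genes, the share to set beside the sign counts of classes below. These shares lie near those of all genes, and the differences described below are those of single genes and small classes. All 90 members passed the limit of 1 FPKM, and 77 reached 5 FPKM in one of the libraries.

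**Figure D1:**
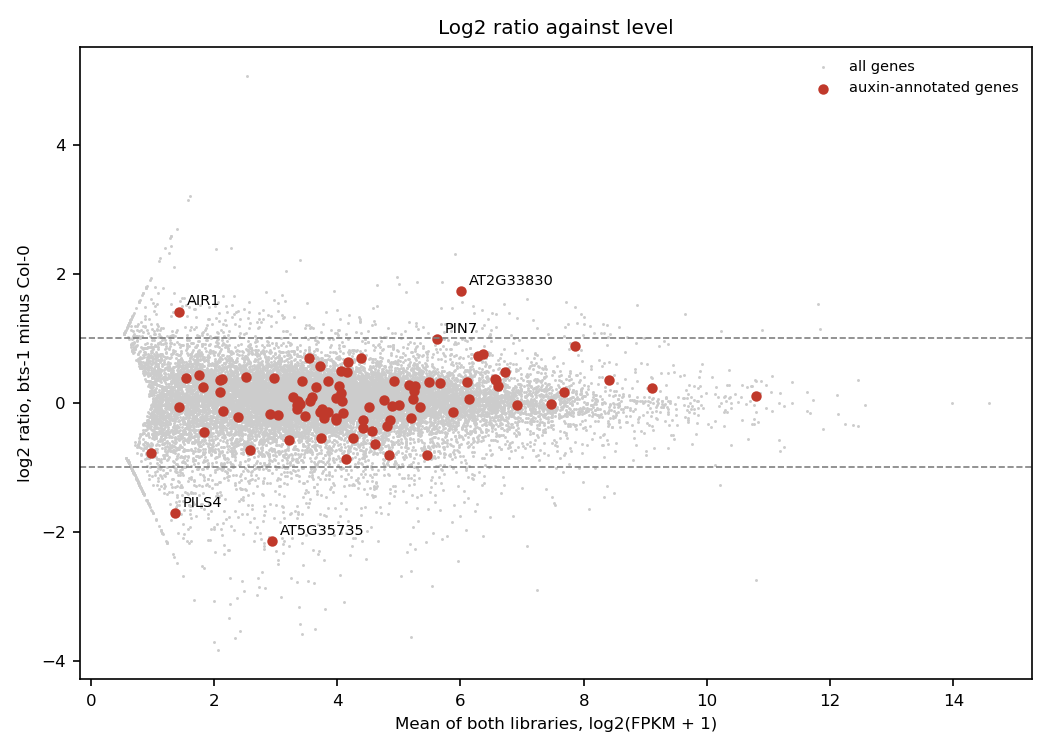
Log2 ratio (bts-1 minus Col-0) against the mean level of both libraries, log2(FPKM + 1), for all genes that reached 1 FPKM (grey) and the 90 auxin-annotated genes (red); dashed lines mark 2-fold. The 4 members past 2-fold and PIN7, at 0.99, are named; most other members lie within the band of all genes at their level.

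The members past 2-fold were 4 genes of unlike kinds. AT2G33830, a dormancy/auxin associated protein gene, stood at 6.87 in bts-1 and 5.14 in Col-0, a log2 ratio of 1.74, and ranked 33rd from the highest of 18510 genes. AIR1 (AT4G12550), which encodes a lipid-transfer-like protein found as auxin-induced in root cultures, stood at 2.14 in bts-1 and 0.72 in Col-0, a log2 ratio of 1.42. Its FPKM was 3.39 in bts-1 and 0.645 in Col-0, so this ratio rests on a low level. The PILS-family carrier gene PILS4 (AT1G76530) stood at 0.51 in bts-1 and 2.21 in Col-0, a log2 ratio of -1.70, again at low levels, 0.424 FPKM in bts-1 and 3.64 FPKM in Col-0. AT5G35735, a DOMON-domain protein gene, stood at 1.87 in bts-1 and 4.01 in Col-0, a log2 ratio of -2.14, and was the 79th lowest of all genes. No member lay only just past the limit, but PIN7 lay just short of it. The nearest past it were AIR1 and PILS4, and the nearest short of it were PIN7 among higher genes and GH3.10, at -0.88, among lower ones. PIN7's log2 ratio of 0.99 corresponds to a 2.01-fold ratio of FPKM before 1 is added. AIR1 and PILS4 each overlap a gene on the other strand, AT4G12555 and AT1G76540, and reads of such partners cannot be told apart, since no source used here gives the strand setting of the counting. In all, 25 members overlap a gene on the other strand and 2 a gene on the same strand.

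The promoters of these 4 genes, and that of the auxin-conjugating enzyme gene GH3.3 as the type of an auxin-induced promoter, are shown because auxin acts on its target genes through ARF binding sites. Each is the 250 bases before the gene start in the RefSeq annotation of TAIR10.1, 5′ to 3′ on the strand of the gene, with the auxin response elements TGTCTC and TGTCGG, searched on both strands, in capitals. The windows are chr2:14310609-14310858 (minus strand) for AT2G33830, chr4:7438865-7439114 (plus strand) for AIR1, chr2:9866563-9866812 (minus strand) for GH3.3, chr1:28717819-28718068 (plus strand) for PILS4 and chr5:13903219-13903468 (minus strand) for AT5G35735.
AT2G33830: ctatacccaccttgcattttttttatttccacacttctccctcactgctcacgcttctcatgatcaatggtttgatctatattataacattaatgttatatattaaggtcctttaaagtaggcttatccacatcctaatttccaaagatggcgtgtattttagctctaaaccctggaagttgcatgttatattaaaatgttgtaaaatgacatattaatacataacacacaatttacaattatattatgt
AIR1: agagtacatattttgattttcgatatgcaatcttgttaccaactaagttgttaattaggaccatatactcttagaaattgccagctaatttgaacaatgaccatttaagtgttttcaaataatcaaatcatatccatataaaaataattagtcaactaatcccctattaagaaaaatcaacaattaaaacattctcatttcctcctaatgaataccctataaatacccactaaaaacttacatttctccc
GH3.3: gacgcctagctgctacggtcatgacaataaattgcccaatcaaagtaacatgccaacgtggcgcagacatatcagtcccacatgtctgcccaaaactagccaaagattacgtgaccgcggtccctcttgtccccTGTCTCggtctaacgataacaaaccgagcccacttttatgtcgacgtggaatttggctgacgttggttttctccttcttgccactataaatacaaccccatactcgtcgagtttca
PILS4: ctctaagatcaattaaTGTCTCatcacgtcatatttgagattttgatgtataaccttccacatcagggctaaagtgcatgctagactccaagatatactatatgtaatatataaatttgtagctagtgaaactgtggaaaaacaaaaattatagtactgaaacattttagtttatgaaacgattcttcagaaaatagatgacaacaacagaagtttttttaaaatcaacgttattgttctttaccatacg
AT5G35735: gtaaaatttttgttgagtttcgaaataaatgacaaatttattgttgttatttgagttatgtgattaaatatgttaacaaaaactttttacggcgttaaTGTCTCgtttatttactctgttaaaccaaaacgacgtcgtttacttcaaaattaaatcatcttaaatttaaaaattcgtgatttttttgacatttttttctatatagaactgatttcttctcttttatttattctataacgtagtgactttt
TGTCTC lay on the gene's own strand once in GH3.3, at position -116 from the start, once in PILS4, at -234, and once in AT5G35735, at -152. Neither element was found in the windows of AT2G33830 and AIR1. The 3 printed windows that hold TGTCTC thus belong to the 2 members past 2-fold lower and, with GH3.3 at a log2 ratio of 0.70, a gene that was higher. Over all members, 16 of 90 windows (17.8%) held TGTCTC, against 10.6% of the 18454 windows of genes in the table, and 12 (13.3%) held TGTCGG, against 4.65%. The shorter core TGTCNN, which includes both, was in 83.3% of members and 74.8% of all windows. The 25 members with either element had a median log2 ratio of 0.03 and the 65 with neither of 0.06. A match is a run of letters and not a shown binding site.

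Of the Aux/IAA repressors, 13 of 20 had a positive log2 ratio and 0 passed 2-fold or 1.5-fold in either direction; the median was 0.17 and the range -0.44 to 0.48. The median was 0.08 without the chromosome 3 genes and 0.10 among genes that reached 5 FPKM. The highest ratio was that of IAA7 (AT3G23050), the AXR2 repressor of growth responses, at 6.96 in bts-1 and 6.48 in Col-0. IAA5 (AT1G15580), at 1.73 in bts-1 and 1.35 in Col-0, and IAA29 (AT4G32280), at 2.31 in bts-1 and 1.94 in Col-0, were low-level genes with ratios of 0.39 and 0.38. IAA19 (AT3G15540), the MSG2 repressor of hypocotyl bending, had a ratio of 0.37, IAA9 of 0.35 and IAA8 of 0.26. Other repressors were lower in bts-1. IAA14 (AT4G14550), the SLR repressor of lateral root formation, stood at 4.34 in bts-1 and 4.79 in Col-0, and its neighbour IAA1 (AT4G14560) at 4.63 in bts-1 and 4.99 in Col-0. IAA12 (AT1G04550), the BDL repressor that acts with ARF5 in the embryo, had a ratio of -0.26 and IAA18 of -0.23. The chromosome 3 genes IAA16 and IAA2 were listed highest in both libraries, IAA16 (AT3G04730) at 10.85 in bts-1 and 10.75 in Col-0 and IAA2 (AT3G23030) at 9.22 in bts-1 and 8.98 in Col-0, but these are the levels that exon lengths on that chromosome distort. Rescaled, IAA16 stood at 8.49 in bts-1 and 8.39 in Col-0, and IAA19 at 3.55 in bts-1 and 3.22 in Col-0.

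Aux/IAA genes that lie beside each other had ratios of one sign in 2 of 3 pairs. IAA14 and IAA1 were at -0.44 and -0.36, and IAA2 and IAA7 at 0.24 and 0.48. IAA3 (AT1G04240), the SHY2 repressor, stood at 6.17 in bts-1 and 6.12 in Col-0, and IAA17 (AT1G04250), the AXR3 repressor, at 5.80 in bts-1 and 5.95 in Col-0, so this pair had ratios of 0.06 and -0.15. Of the relatives described as phytochrome-associated proteins and therefore outside the rule, named after their values were seen, IAA27 (AT4G29080) stood at 3.85 in bts-1 and 3.30 in Col-0 and IAA26 (AT3G16500) had a ratio of 0.09. With them the Aux/IAA family had 15 of 22 positive ratios.

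Among the larger classes the ARF transcription factors had the narrowest interquartile range of log2 ratios, 0.32. It was 0.55 for Aux/IAA genes and 0.48 for all genes. The full ARF range, -0.55 to 0.64, was wider than the -0.44 to 0.48 of Aux/IAA genes. Of the 15 ARF ratios, 6 were positive, and the median was -0.04. ARF2 (AT5G62000), a repressor of cell growth and organ size, was the highest of the class in level, at 6.90 in bts-1 and 6.94 in Col-0. The largest ratio belonged to ARF6 (AT1G30330), an activator of flower and hypocotyl growth, at 4.49 in bts-1 and 3.85 in Col-0, 0.64. ARF8 (AT5G37020), which shares its roles and the microRNA miR167 with ARF6, went the other way, at 4.22 in bts-1 and 4.61 in Col-0. The ARF genes targeted by miR160 were split as well. ARF10 (AT2G28350) stood at 3.98 in bts-1 and 4.53 in Col-0, a ratio of -0.55, ARF17 (AT1G77850) at 2.71 in bts-1 and 2.31 in Col-0, 0.40, and ARF16 at -0.03. Ratios of the other activators were small, 0.26 for ARF19, 0.15 for ARF5 (also called MONOPTEROS) and -0.06 for ARF7. ARF1, next to ARF2 in Col-0 level, was at 5.25 in bts-1 and 5.19 in Col-0. The chromosome 3 gene ARF18 (AT3G61830) was listed at 5.30 in bts-1 and 5.03 in Col-0. Rescaled, ARF18 stood at 3.75 in bts-1 and 3.49 in Col-0.

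All 4 receptor members had positive ratios, from 0.04 to 0.38, with 0 past 1.5-fold. AFB4 (AT4G24390) stood at 3.16 in bts-1 and 2.77 in Col-0, AFB2 (AT3G26810) at 8.58 in bts-1 and 8.23 in Col-0, AFB5 (AT5G49980) at 5.33 in bts-1 and 5.15 in Col-0, and AFB3 (AT1G12820) at 4.79 in bts-1 and 4.74 in Col-0. The receptors TIR1 and AFB1, whose descriptions do not name auxin and whose values were seen before they were chosen, were higher too. TIR1 (AT3G62980) stood at 9.60 in bts-1 and 9.13 in Col-0, and AFB1 (AT4G03190) at 4.45 in bts-1 and 3.87 in Col-0. All 6 genes of the family were thus higher in bts-1, with a median of 0.37, while 54.8% of all genes had a positive ratio. AFB2 and TIR1 are chromosome 3 genes, and AFB2 stood at 4.89 in bts-1 and 4.55 in Col-0 when rescaled.

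**Figure D2:**
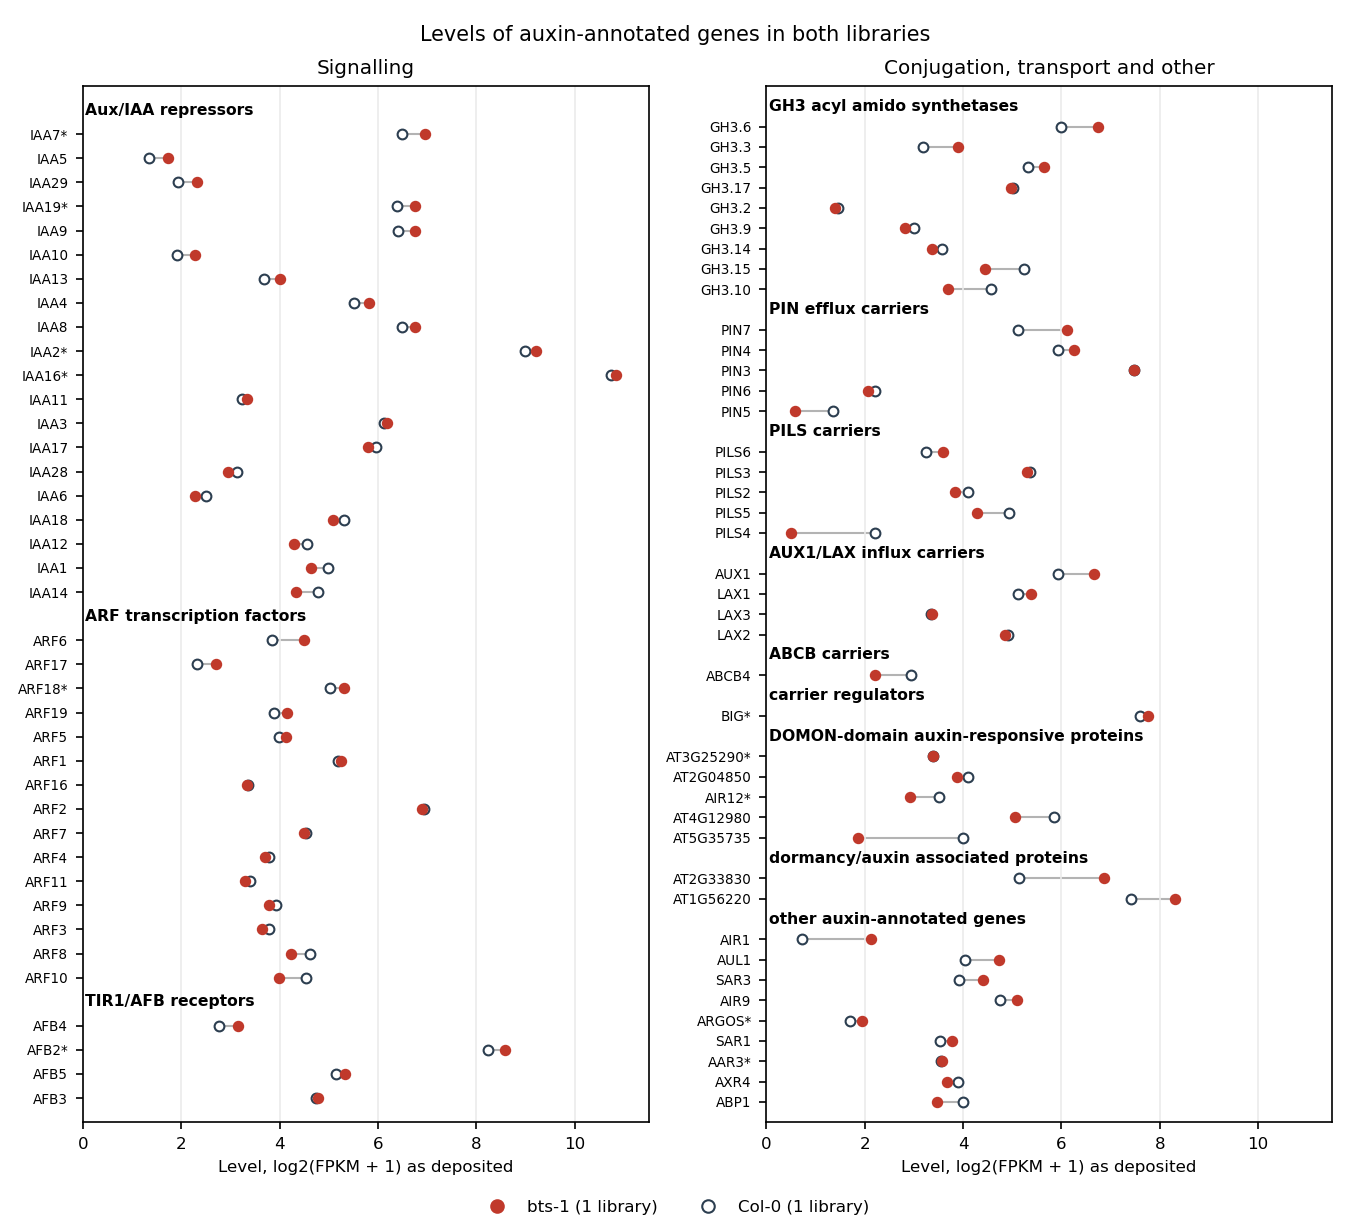
Level, log2(FPKM + 1), of auxin-annotated genes outside the SAUR class in the bts-1 library (red) and the Col-0 library (open circles), grouped by class and sorted by log2 ratio; * marks chromosome 3 genes, whose levels cannot be compared with others. The circles of most signalling genes lie close together, and the longest distances are those of AT5G35735, AT2G33830, PILS4 and AIR1.

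Of the GH3 enzymes, 3 of 9 had a positive log2 ratio, and the median was -0.06. GH3.6 (AT5G54510) and GH3.3 (AT2G23170), which conjugate auxin to amino acids, were higher, at 6.75 in bts-1 and 5.998 in Col-0 for GH3.6 and 3.89 in bts-1 and 3.19 in Col-0 for GH3.3, with ratios of 0.75 and 0.70. GH3.5 (AT4G27260), which acts on auxin and salicylic acid, was at 5.65 in bts-1 and 5.32 in Col-0. The other auxin-conjugating members were close to zero, GH3.17 (AT1G28130) with 4.98 in bts-1 and 5.01 in Col-0, GH3.2 with a ratio of -0.06 and GH3.9 with -0.17. GH3.10 (AT4G03400), known as DFL2 for its effect on hypocotyl length in light, stood at 3.70 in bts-1 and 4.58 in Col-0, a ratio of -0.88, and GH3.15 (AT5G13370) at 4.44 in bts-1 and 5.24 in Col-0, -0.81. Its neighbour GH3.14 (AT5G13360) was at -0.20, and reads of such neighbouring copies may be shared. GH3.12 (AT5G13320), named after its value was seen and known as PBS3, an enzyme of salicylic acid synthesis outside the rule, had the lowest ratio of the family at -1.60, with 0.83 in bts-1 and 2.43 in Col-0, while the jasmonate enzyme gene JAR1 (GH3.11) was at 0.02.

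Carriers differed gene by gene, with 7 of 16 log2 ratios positive and a median of -0.04. Among PIN efflux carriers, PIN7 (AT1G23080), which acts in shoot and root transport together with PIN3 and PIN4, stood at 6.11 in bts-1 and 5.12 in Col-0. PIN4 (AT2G01420) stood at 6.26 in bts-1 and 5.94 in Col-0, and PIN3 (AT1G70940), the most abundant of the class, at 7.47 in bts-1 and 7.48 in Col-0. PIN7 and PIN3 are close homologues, and in these libraries their FPKM of 67.9 and 176 in bts-1 compared with 33.7 and 178 in Col-0. PIN5 (AT5G16530), a short PIN of the endoplasmic reticulum, was near the lower end of detection, at 0.59 in bts-1 and 1.36 in Col-0, and PIN6 at 2.07 in bts-1 and 2.20 in Col-0. The PILS carriers of the endoplasmic reticulum had 4 of 5 negative ratios, against 8357 of all 18510 genes, and a median of -0.26. Besides PILS4, PILS5 (AT2G17500) stood at 4.29 in bts-1 and 4.93 in Col-0 and PILS2 (AT1G71090) at 3.84 in bts-1 and 4.10 in Col-0. PILS3 (AT1G76520), the neighbour of PILS4 and the most abundant PILS gene, was at 5.30 in bts-1 and 5.37 in Col-0, and PILS6 alone had a positive ratio, 0.34.

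Among influx carriers, AUX1 (AT2G38120), the founding member, stood at 6.66 in bts-1 and 5.93 in Col-0, a ratio of 0.73, and LAX1 (AT5G01240) at 5.39 in bts-1 and 5.13 in Col-0. LAX2 had a ratio of -0.05. LAX3 had one of 0.03, which turned to -0.0037 when ratios were centred on the nuclear median. AXR4 (AT1G54990), which helps AUX1 reach the plasma membrane, was at 3.67 in bts-1 and 3.90 in Col-0. BIG (AT3G02260), a very large protein needed for polar transport, had a ratio of 0.17.

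Only ABCB4 (AT2G47000) of the ABCB carriers matched the rule, and it stood at 2.21 in bts-1 and 2.95 in Col-0. It overlaps 1 gene on its own strand and 1 on the other. Its closest relative ABCB21 (AT3G62150), described without the word auxin and named after its value was seen, differed in the other direction, at 5.97 in bts-1 and 4.25 in Col-0, a log2 ratio of 1.72. Rescaled for chromosome 3, it stood at 4.57 in bts-1 and 2.93 in Col-0, 1.63. ABCB21 also overlaps a gene on the other strand, and reads of overlapping genes cannot be told apart in either relative. The main auxin exporters of this group were close to zero, ABCB1 at 0.10 and ABCB19 at 0.22. The kinase gene PID (AT2G34650), whose product directs PIN proteins to one end of the cell, was at 2.42 in bts-1 and 1.74 in Col-0, and the other 5 genes of the regulator list outside the rule had ratios of -0.10 to 0.19.

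**Figure D3:**
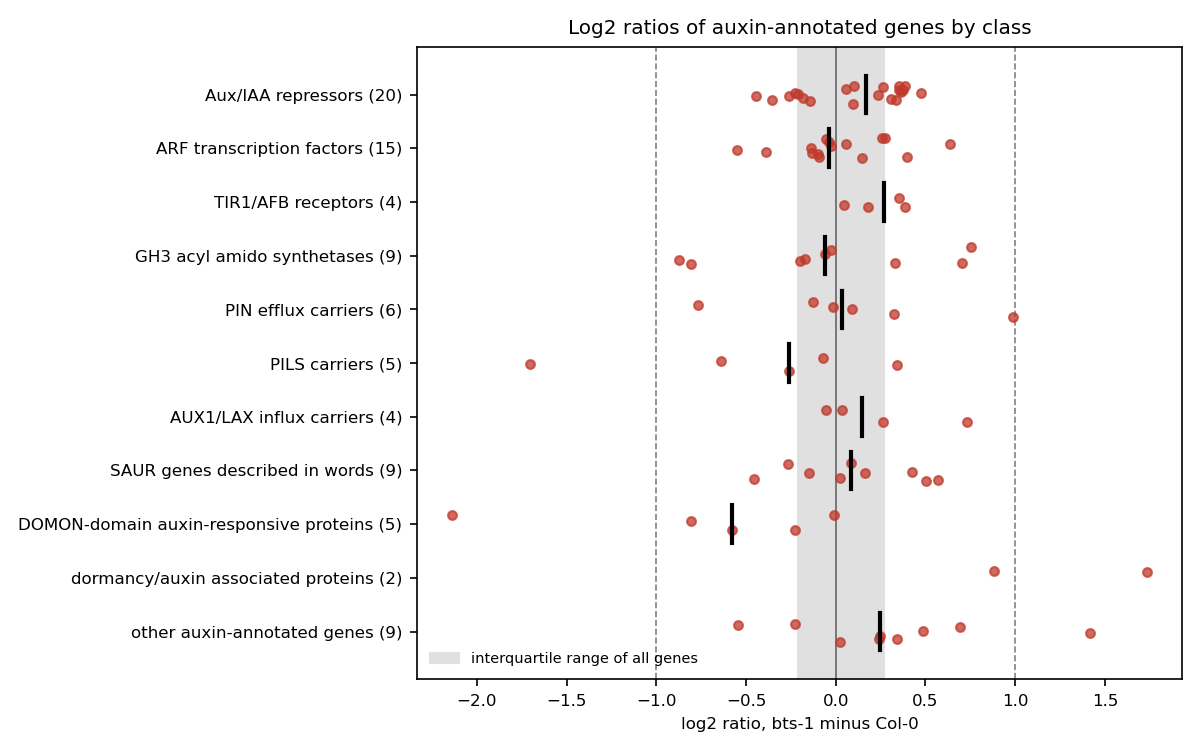
Log2 ratio (bts-1 minus Col-0, 1 library each) of every member of the classes with more than 1 gene, with the number of genes in brackets; black bars are class medians (3 genes or more), the grey band is the interquartile range of all genes, -0.21 to 0.27, and dashed lines mark 2-fold. The DOMON-domain genes lie at or below zero and both dormancy/auxin associated genes lie to the right of the band.

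The DOMON-domain genes, described as auxin-responsive, shared a direction. DOMON-domain proteins are heme-binding proteins of the plasma membrane and cell wall, and 4 of the 5 members also carry a cytochrome b561 domain, a membrane electron carrier. All 5 had negative ratios, as did 8357 of all 18510 genes, and the class median was -0.58. After AT5G35735, the next were AT4G12980, at 5.05 in bts-1 and 5.86 in Col-0, and AIR12 (AT3G07390), a secreted member without the cytochrome domain, at 2.93 in bts-1 and 3.51 in Col-0. AT2G04850 was at 3.87 in bts-1 and 4.10 in Col-0 and AT3G25290 at 3.38 in bts-1 and 3.39 in Col-0, so the last hardly differed. The class was delimited by its annotated domain after values were seen. These 5 are the genes of the table whose reference annotation lists the domain entry named DOMON-like. Other entries for DOMON domains were not searched, so further DOMON genes of the table may lie outside the class.

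The dormancy/auxin associated proteins went the other way. AT1G56220 stood at 8.30 in bts-1 and 7.42 in Col-0, a ratio of 0.88, beside AT2G33830 at 1.74. AT1G56220 overlaps AT1G56225 on the other strand, and reads of overlapping genes cannot be told apart. The third gene of the table with this domain, DYL1 (AT1G28330), is described without the word auxin and was named after its value was seen. It stood at 6.29 in bts-1 and 5.07 in Col-0, a ratio of 1.22. With it, 3 of 3 genes of the table with this domain were higher and 2 of them past 2-fold. Over all genes, 54.8% had a positive ratio and 1.92% were at least 2-fold higher. DYL1 and its relatives are known from dormant buds, and the reference annotation of DYL1 and AT2G33830 cites responses to sugars.

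The 9 members of other kinds had 7 positive ratios and a median of 0.25. AUL1 (AT1G75310), an auxilin-like protein with a DnaJ domain that the description spells auxin-like, stood at 4.73 in bts-1 and 4.03 in Col-0, so its place among auxin genes rests on that spelling. The nucleoporin genes SAR3 (AT1G80680) and SAR1 (AT1G33410), found as suppressors of auxin resistance, had ratios of 0.49 and 0.24. AIR9 (AT2G34680), a microtubule-associated protein, stood at 5.10 in bts-1 and 4.75 in Col-0. ABP1 (AT4G02980), an auxin-binding protein of the endoplasmic reticulum and cell wall, stood at 3.46 in bts-1 and 4.01 in Col-0, and the organ size gene ARGOS (AT3G59900) at 1.95 in bts-1 and 1.70 in Col-0. AAR3 had a ratio of 0.03.

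AIR1 is annotated as expressed in hypocotyl and root, and markers of root cells were therefore read beside it. Of 10 root markers 5 had a row, with levels of 1.33 to 10.19 in bts-1 and 0.91 to 10.06 in Col-0. The highest level was that of PYK10, a chromosome 3 gene like SCR. Rescaled, PYK10 stood at 9.78 in bts-1 and 9.65 in Col-0. Ratios ran from -0.57 for SCR to 0.56 for PHT1;1, and 3 of 5 were positive. The other 5 markers had no row, so nothing could be read from them. Of 7 shoot apex markers 5 had a row, at 1.19 to 5.05 in bts-1 and 0.89 to 4.48 in Col-0, with ratios of -0.20 to 0.57. Their part in the AIR1 value and in the other ratios was not tested.

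The 9 SAUR genes that the rule kept had 6 positive ratios, a median of 0.08 and a range of -0.45 to 0.57, with 0 past 1.5-fold. AT1G29460 was the highest, at 4.01 in bts-1 and 3.44 in Col-0, followed by AT5G18080, at 4.32 in bts-1 and 3.82 in Col-0, and AT1G16510, at 1.97 in bts-1 and 1.54 in Col-0. AT1G29420 was the lowest, at 1.61 in bts-1 and 2.06 in Col-0, and AT1G29430, the most abundant in both libraries, stood at 4.73 in bts-1 and 4.99 in Col-0. AT1G29420 to AT1G29500 form a cluster of near neighbours whose reads may be shared. Without these 9 genes the median of the members was 0.04, with the same 2 genes past 2-fold in each direction.

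Genes that make auxin lie outside the rule, and a list of 14 genes of the indole-3-pyruvate route, in which TAA1 and its relatives and then YUCCA monooxygenases convert tryptophan to auxin, had 8 rows. Of these, 6 had positive ratios, 2 passed 2-fold upward and 1 downward, and the median was 0.58. The shares of all genes were 54.8% positive, 1.92% past this limit upward and 3.63% past it downward, with a median of 0.04. YUC8 (AT4G28720), a YUCCA gene of growth in shade and warmth, stood at 2.56 in bts-1 and 1.26 in Col-0. YUC9 (AT1G04180) stood at 1.38 in bts-1 and 0.15 in Col-0, and YUC5 (AT5G43890) at 1.20 in bts-1 and 2.22 in Col-0. The YUC9 level in Col-0 is also the lowest value of the bts-1 column, near the floor of the data. Its log2 ratio of 1.23 was 3.01 with 0.1 added to the FPKM and 0.37 with 5. TAA1 (AT1G70560), the aminotransferase of the first step, stood at 3.52 in bts-1 and 2.98 in Col-0, and its relative TAR2 had a ratio of -0.37. Every YUCCA gene was below an FPKM of 5 in both libraries, and 0 of the 3 counted genes remained past 2-fold when 5 in place of 1 was added to the FPKM.

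Of 11 genes for auxin inactivation and for release of auxin from its conjugates, 10 had a row and 0 passed 2-fold, with a median of 0.03. The glucosyltransferase gene UGT74D1 (AT2G31750) stood at 5.58 in bts-1 and 6.33 in Col-0 and the auxin oxidase gene DAO1 (AT1G14130) at 2.85 in bts-1 and 3.55 in Col-0, while the amidohydrolase gene ILL2 (AT5G56660) stood at 3.38 in bts-1 and 2.66 in Col-0. In the list of auxin-induced genes of other families, 5 of 9 passed the limit of 1 FPKM, ARGOS among them, and 4 had positive ratios. ACS4 (AT2G22810), an auxin-induced enzyme of ethylene synthesis, was the gene of this list past 2-fold, at 2.25 in bts-1 and 1.10 in Col-0. The share of all genes at least 2-fold higher was 1.92%. The homeobox genes HAT2 (AT5G47370) and ATHB2 had ratios of 0.29 and 0.26, and the growth regulator gene PRE1 of -0.23.

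**Figure D4:**
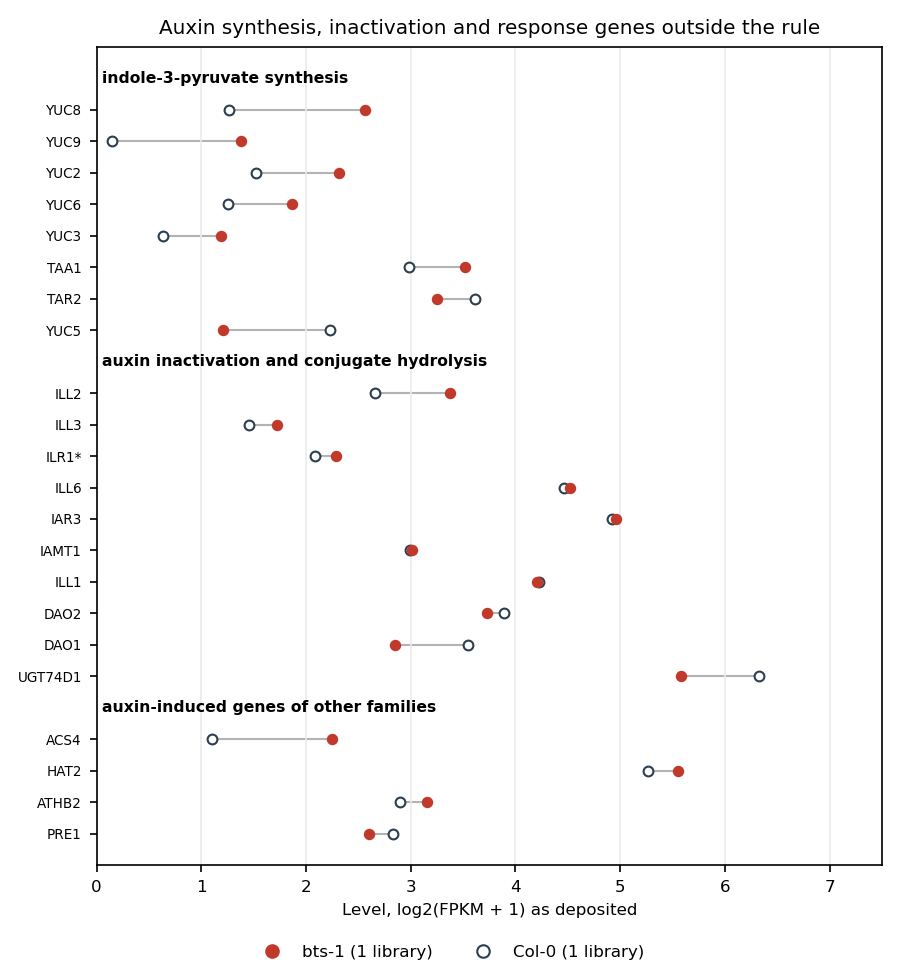
Level, log2(FPKM + 1), of genes for auxin synthesis, auxin inactivation and conjugate hydrolysis, and auxin response outside the rule, in the bts-1 library (red) and the Col-0 library (open circles), sorted by log2 ratio within each list; * marks chromosome 3 genes. Most genes of the synthesis list are higher in bts-1 at low levels, YUC8 by 1.30, and UGT74D1 and DAO1 are lower.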

How the data were processed

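Listed in the submitters' processing notes, without order or settings, are HTSeq 0.9.1, TopHat2 2.1.0, Bowtie, cutadapt 1.12, CASAVA 1.8.2 and the TAIR10 build. The deposited table is named normalized FPKM, but its values are on a log2 scale: 2 raised to the value, minus 1, weighted by exon length, summed to 1568061 in bts-1 and 1589846 in Col-0, nearer to what FPKM implies than 25922795 in bts-1 and 26824109 in Col-0 for a natural log. The deposited columns, sorted, were identical within 0.001 at 99.1% of ranks, as after quantile normalization, though no label records that step, so ratios are relative to the rest of the table. The 2 rows without symbol or description, holding 4.34% of summed FPKM in bts-1 and 4.33% in Col-0, were left out. The log2 ratio is the difference between columns; the 1 inside the deposited log2 values understates differences of low genes. Scripts ran in Python 3.11.15 with pandas 2.3.3, and the ratio and counting steps were tested on simulated data.

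Members were found by the stated text rule. Classes, pathway lists and markers were locus lists. Members and lists were chosen with earlier results of these data known, and the DOMON, dormancy, SAUR and remaining classes were delimited after values were seen. Named genes were members past 2-fold with an FPKM of at least 5, the 4 largest absolute ratios and the 2 highest Col-0 levels of each class, and in each pathway list the genes past 2-fold and the 3 largest ratios; other genes, AIR1 and PILS4 included under the class part, illustrate a class. Promoters and domain notes come from the RefSeq annotation of TAIR10.1, and 18455 of 18615 genes had an exon length. Protein sequences were not used here, and 1 member is counted in its class but its own values are not reported here. Alternatives changed the pseudocount, filter, centring, fold limit and chromosome 3 levels.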

Additional observations from a re-analysis of the deposited data

How the results depend on the processing

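With 1 library per genotype, no value has a replicate error, and without counts no interval is possible. No paired analysis was possible because each genotype has 1 library. Among 486 recomputed values of 63 named genes, 1 changed sign, that of LAX3, at -0.0037 after centring. Only centring could change a sign, because the other settings keep which library is higher for each gene. The median of members stayed between 0.01 and 0.05. Counts of few genes moved. With a pseudocount of 0.1, 3 members were at least 2-fold higher, PIN7 among them at 1.01, and 3 lower, PIN5 among them at -1.46. With a pseudocount of 5, or among genes that reached 5 FPKM, 1 member was at least 2-fold higher and 1 lower. At a limit of 1.5-fold, 9 were higher and 8 lower, and at 3-fold 1 was higher and 2 lower. The DOMON-domain median was -0.41 with a pseudocount of 5 and -0.81 without chromosome 3 genes, and the PIN median was 0.21 at an FPKM of at least 5 and -0.0027 after centring, against 0.04. The Aux/IAA median of 0.17 was 0.08 without chromosome 3 genes and 0.10 at an FPKM of at least 5. The receptor median was 0.37 over the whole family, an alternative added once the data had been seen, against 0.27 for its 4 members. In the synthesis list 4 genes were at least 2-fold higher with a pseudocount of 0.1, and 0 were higher and 0 lower with 5 or at an FPKM of at least 5, where the auxin-induced list also had 0 higher. Over all genes, 735 were at least 2-fold higher and 997 lower with a pseudocount of 0.1, and 101 higher and 254 lower with 5; among genes that reached 5 FPKM, 198 were higher and 464 lower. Deposited levels of chromosome 3 genes remain uncertain.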
